A study of Mus musculus with 26 samples.

Results

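IgM heavy-chain clonotypes were compared between skin and lymph node of wild-type mice that had all received the same treatment, association with the skin commensal bacterium Staphylococcus epidermidis (spelled S. epidermidies in the labels). The rule took every deposited row whose constant gene was IGHM. It counted as 1 clonotype each combination of a V gene, a J gene and a junction, the nucleotides from the conserved cysteine codon to the conserved tryptophan codon around the third complementarity-determining region (CDR3). It used 16 of the 26 tables of the series, 8 of skin and 8 of lymph node, and found 745 IgM clonotypes in skin, among 1267 clonotypes of all isotypes, and 232709 in lymph node, among 293492.

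Each tissue had 4 biological replicates, and the 2 technical libraries of a replicate were summed. The remaining tables, from spleen and a positive control, were not part of the comparison. Titles gave the tissue of a library, since the tissue field names ear skin for every tissue library. No label gives an age, a strain or the number of B cells, none says that replicates came from separate mice, and there was no group without the bacterium. The p-values below therefore measure only the spread between these samples, which may be technical. Libraries were made from bulk RNA, in which fewer cells and less heavy-chain RNA per cell cannot be told apart.

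IgM is the first antibody class that a B cell makes, and it is carried by naive cells, by B-1 cells and by some memory and plasma cells. Each B cell joins a V, a D and a J segment once, so that its junction marks its descendants. In germinal centres, activated B cells mutate the joined segments, which can change some bases of the junction too. They can also switch to IgG or IgA, which leaves the junction as it is. B-1a cells, known best from the peritoneal and pleural cavities of mice, are known for IgM that uses IGHV11-2 or IGHV12-3, binds phosphatidylcholine and is mostly unmutated. The IGHM constant gene lies on chromosome 12 at positions 113418826 to 113422730 of mm10, and the 4 J genes lie between 113428514 and 113429833, by the RefSeq annotation of that build.

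The deposited count of a sequence is called its copies, and the file headers do not say whether it counts molecular identifiers or reads. Single libraries held 595 to 1492 IgM copies in skin and 35550 to 83032 in lymph node. Replicates 1 to 4 held 2396, 1351, 1486 and 2074 IgM copies in 235, 174, 191 and 145 clonotypes in skin, against 73761, 156357, 88289 and 153561 copies in 22556, 91918, 41700 and 76535 clonotypes in lymph node. IgM made up 31.1% of all copies in skin and 71.2% in lymph node. A skin clonotype had 10.2, 7.76, 7.78 and 14.3 copies on average, and a lymph node clonotype had 3.27, 1.70, 2.12 and 2.01. Clonotypes found in both technical libraries were few: 4, 1, 4 and 3 in skin, and 582, 5154, 1107 and 4014 in lymph node. These were 0.575% to 2.09% of clonotypes in skin and 2.58% to 5.61% in lymph node. They held 1.63% to 9.76% of IgM copies in skin and 10.9% to 24.2% in lymph node.

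The largest IgM clonotypes that both technical libraries of a replicate contained are shown first, up to 2 per skin replicate and then 1 for each of lymph node replicates 2, 3 and 4, because they were read from separate libraries. Capitals mark the CDR3 between the conserved codons, 5′ to 3′.
Skin replicate 1, IGHV9-4 with IGHJ4: tgtGCGAGAACCCGTGCTATGGACTACtgg
Skin replicate 1, IGHV1-50 with IGHJ4: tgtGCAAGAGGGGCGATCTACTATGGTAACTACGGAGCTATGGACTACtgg
Skin replicate 2, IGHV6-3 with IGHJ1: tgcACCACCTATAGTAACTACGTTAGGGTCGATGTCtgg
Skin replicate 3, IGHV1-82 with IGHJ1: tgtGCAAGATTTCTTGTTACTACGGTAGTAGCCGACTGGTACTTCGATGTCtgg
Skin replicate 3, IGHV1-62-2 with IGHJ4: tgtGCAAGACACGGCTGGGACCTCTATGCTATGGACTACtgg
Skin replicate 4, IGHV3-6 with IGHJ1: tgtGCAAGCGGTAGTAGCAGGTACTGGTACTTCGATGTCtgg
Skin replicate 4, IGHV1-62-2 with IGHJ2: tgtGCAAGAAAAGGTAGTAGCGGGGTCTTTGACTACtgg
Lymph node replicate 2, IGHV1-69 with IGHJ2: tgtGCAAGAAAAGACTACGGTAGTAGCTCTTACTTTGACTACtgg
Lymph node replicate 3, IGHV1-39 with IGHJ3: tgtGCAAGATGGCCAGAGGCTTACtgg
Lymph node replicate 4, IGHV10-1 with IGHJ4: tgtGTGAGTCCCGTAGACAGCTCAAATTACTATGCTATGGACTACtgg

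These 7 skin clonotypes held 22 to 74 copies, and no junction occurred more than once among them. IGHV1-62-2 was used in skin replicates 3 and 4, with different J genes. The CDR3s spanned 8 to 16 amino acids. The largest, IGHV3-6 with IGHJ1 in skin replicate 4, had 26 copies in library 1 and 48 in library 2, 3.57% of that replicate's IgM copies, and a V mutation of 0.724%. The other 6 skin clonotypes carried 0 to 0.337% V mutation. The 3 lymph node clonotypes held 537 to 1736 copies, 0.608% to 1.11% of their replicate's IgM, with 0 to 0.0440% V mutation. The IGHV1-39 clonotype of lymph node replicate 3 also had 233 IgG copies.

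Skin IgM was made of far fewer clonotypes than lymph node IgM at the same number of copies. Every replicate was drawn down 100 times to 1351 IgM copies, the total of skin replicate 2. The draws held 186.3, 174, 183.1 and 119.8 distinct clonotypes in skin replicates 1 to 4, against 1221, 1214, 1287 and 1023 in lymph node. Skin averaged 165.8 ± 31.1 clonotypes and lymph node 1186 ± 113 (SD, n = 4 each). The groups did not overlap, and the difference of -1020 clonotypes had p = 0.0286 in an exact two-sided permutation test, the smallest value that 4 against 4 allows, and p = 0.0357 adjusted over the 5 repertoire measures. In these draws 35.7% to 50.6% of skin clonotypes had been drawn with 1 copy, against 94.9% to 97.3% of lymph node clonotypes. Of the 93, 59, 70 and 59 skin clonotypes of 10 or more IgM copies, 269 were IgM in 1 technical library only. In lymph node 239 of 367, 205, 125 and 164 were. A copy may be a read, and the part of reads per molecule or of input in this difference was not tested.

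The 10 largest clonotypes held more of the skin copies. Their share of the drawn copies was 20.6%, 26.8%, 20.4% and 36.8% in skin, against 5.95%, 7.23%, 3.69% and 18.6% in lymph node. All skin replicates were above all lymph node replicates, the closest being skin replicate 3 and lymph node replicate 4. The mean difference of 17.3 percentage points had p = 0.0357 after adjustment (exact permutation test). The call was lost without any one of the skin replicates (adjusted p = 0.0571 to 0.0714, exact permutation tests). The remaining skin replicates were still above all lymph node replicates, with differences of 13.7 to 19.2 percentage points. The call was also lost without single-copy clonotypes (adjusted p = 0.0857, exact permutation test). There the share was 21.6% to 38.2% in skin, against 4.65% to 28.4% in lymph node, and the groups overlapped. The largest clonotype alone held 3.05%, 5.33%, 3.70% and 15.4% in skin and 1.47%, 1.24%, 0.724% and 6.63% in lymph node, so for that measure the groups overlapped.

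**Figure D1:**
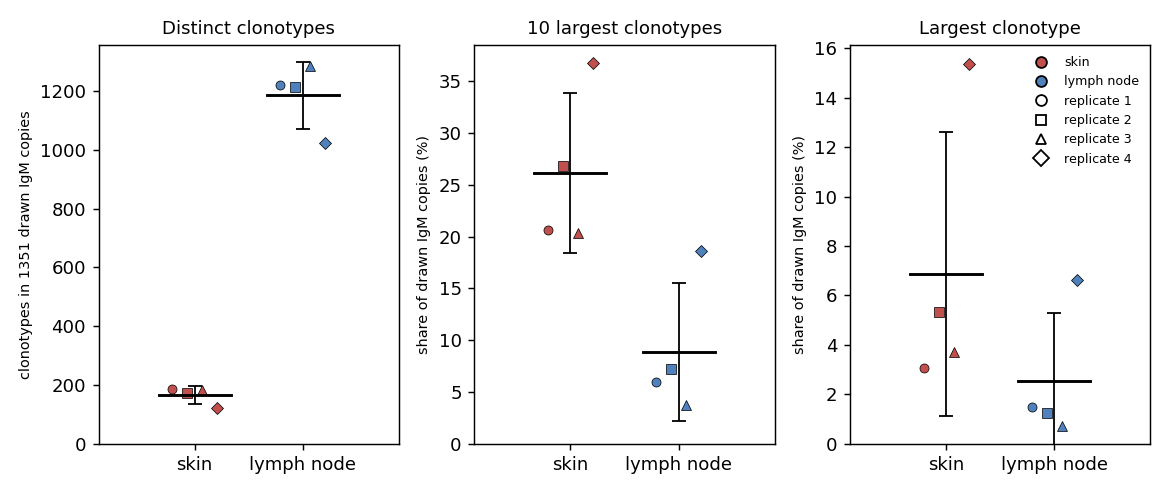
Clone size at equal IgM copies in skin and lymph node. Points are replicates, bars are the mean and SD over 4 replicates, and values are means over 100 draws of 1351 copies. The left panel gives distinct clonotypes (119.8 to 186.3 in skin, 1023 to 1287 in lymph node), the middle panel the percentage of copies in the 10 largest clonotypes and the right panel that in the largest clonotype, where replicate 4 is highest in both tissues.

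The largest IgM clonotypes of replicate 4 were also those whose isotype differed between technical libraries. In skin replicate 4 the largest IgM clonotype, IGHV14-1 with IGHJ2, had 319 IgM copies, all in library 2, while library 1 listed the same V gene, J gene and junction with 368 switched copies, mainly IgA. In skin replicate 2, an IGHV1-77 clonotype had 72 IgM copies in library 1 and 80 switched copies, mainly IgA, in library 2. In lymph node replicate 4 an IGHV9-3 clonotype had 10068 IgM copies in library 2 and 10232 IgG2 copies in library 1, and an IGHV5-9-1 clonotype had 5691 IgM copies in library 2 and 5459 IgA copies in library 1. Among clonotypes of 10 or more IgM copies that were IgM in 1 library only, 3 of 269 in skin and 35 of 239 in lymph node were listed with 10 or more copies of a switched isotype in the other library. In skin all 3 were IgA and carried 3.47% to 4.17% V mutation. In lymph node 29 of the 35 were mainly IgG2. Of the distinct sequences within a library, 0 of 1952 in skin and 13 of 356995 in lymph node were listed under more than 1 isotype.

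Clonotypes with IgA, IgG or IgE copies in the same replicate held 0.501%, 9.25%, 2.36% and 18.4% of IgM copies in skin and 2.77%, 2.5%, 1.96% and 15.1% in lymph node. Without them the 10 largest clonotypes held 20.8%, 23.98%, 20.9% and 28.2% of drawn copies in skin, against 5.04%, 7.46%, 2.82% and 8.37% in lymph node. This alternative was added after the data were seen, and its adjusted p was again 0.0357 in the exact permutation test.

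Among clonotypes of 10 or more IgM copies, IgG copies were listed beside IgM in 0 of 93, 59, 70 and 59 skin clonotypes, against 2.997%, 16.6%, 8.80% and 13.4% of 367, 205, 125 and 164 lymph node clonotypes. The groups did not overlap, but the adjusted p over the 3 isotype classes was 0.0857 in the exact permutation test. IgA copies were listed for 1.08%, 3.39%, 2.86% and 5.08% of these clonotypes in skin and for 1.09%, 0.488%, 0.800% and 2.44% in lymph node. IgD copies, which a B cell makes from the same transcript as IgM by splicing, were listed for 2.15%, 0%, 0% and 0% in skin and for 1.91%, 1.95%, 0.800% and 1.83% in lymph node. For both of these classes the groups overlapped, with adjusted p-values of 0.129 and 0.143 in exact permutation tests.

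The isotype shares depended on how the copies were counted. By lineages the IgG difference was -4.29 percentage points and the IgD difference -17.8 (adjusted p = 0.0429 for each, exact permutation tests). In technical library 1 alone the IgA difference was 3.22 percentage points (adjusted p = 0.0429, exact permutation test), and in library 2 alone it was -0.73. The clonotypes listed as IgM in 1 library and as switched in the other, given above, enter the shares of the summed libraries. Within single libraries the copies of the other library do not enter, but some of these clonotypes had both isotypes in 1 library. In skin replicate 4 the IGHV14-1 clonotype had 6 switched copies beside 319 IgM copies in library 2. In skin replicate 2 the IGHV1-77 clonotype had 1 beside 72 in library 1. The IgG difference was -9.67 percentage points in library 1 alone (adjusted p = 0.0429, exact permutation test). In library 2 alone it was -9.22 (adjusted p = 0.0857, exact permutation test), beside -10.4 for the summed libraries. Lymph node libraries were deeper, and the part of depth or of the listed constant gene in these shares was not tested.

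Averaged over all clonotypes, skin IgM carried more V mutation than lymph node IgM. V mutation is the mismatched percentage of the aligned V nucleotides, whose median length was 144 in both tissues, and it covers framework 2 onward. It was 0.704%, 0.911%, 0.901% and 0.831% in skin, against 0.537%, 0.529%, 0.489% and 0.433% in lymph node. The groups did not overlap. The means were 0.837% ± 0.0954 in skin and 0.497% ± 0.0476 in lymph node (SD, n = 4 each), with an exact permutation p adjusted over the 5 measures of 0.0357. Clonotypes with no mismatch in any sequence made up 47.2%, 44.8%, 44.0% and 43.4% in skin, against 59.0%, 61.6%, 60.3% and 64.7% in lymph node (adjusted p = 0.0357, exact permutation test). The exact 95% binomial intervals of the 4 skin shares ran from 35.2% to 53.8% in all and cover counting error only.

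The excess in skin was in clonotypes of few copies, and it was reversed in those of many. The classes are numbers of copies, and since replicates held 1351 to 2396 IgM copies in skin and 73761 to 156357 in lymph node, a class stands for a larger share of IgM in skin. Clonotypes of 1 copy averaged 1.17%, 1.41%, 1.57% and 1.35% V mutation in skin, against 0.960%, 0.661%, 0.730% and 0.527% in lymph node. Clonotypes of 2 to 9 copies averaged 0.800%, 0.797%, 0.688% and 0.929% in skin, over 16 to 40 clonotypes, against 0.296%, 0.218%, 0.251% and 0.208% in lymph node. Clonotypes of 10 or more copies averaged 0.137%, 0.223%, 0.253% and 0.188% in skin, against 0.299%, 0.467%, 0.309% and 0.491% in lymph node. In none of the 3 classes did the tissues overlap, and skin was the higher tissue in the first 2 and the lower in the last. Clonotypes of 10 or more copies held 81.7% to 93.9% of the IgM copies in skin and 6.28% to 29.0% in lymph node. For that class, chosen once the values were known, the exact permutation test gave an adjusted p of 0.0357.

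Among those larger clonotypes, the sequences of a clonotype were pooled by number of V mismatches and aligned V length. The pool with most copies had no V mismatch in 92.5%, 91.5%, 92.9% and 88.1% of skin clonotypes, against 88.0%, 79.5%, 81.6% and 79.9% of lymph node clonotypes. Without clonotypes that also had switched copies, V mutation of the class was 0.136%, 0.157%, 0.207% and 0.126% in skin and 0.258%, 0.438%, 0.297% and 0.366% in lymph node, still without overlap. Weighted by copies instead of by clonotypes, V mutation was 0.254%, 0.522%, 0.365% and 0.706% in skin, against 0.365%, 0.419%, 0.347% and 0.315% in lymph node. The groups overlapped (adjusted p = 0.457, exact permutation test). The highest skin values, in replicates 4 and 2, include the IGHV14-1 clonotype of 319 IgM copies (3.47% V mutation) and the IGHV1-77 clonotype of 72 (4.17%). Both were listed mainly as IgA in the other library, as given above. V mutation weighted by copies was not computed without them. Of all mismatches, 60.3% to 71.8% changed the amino acid in skin and 64.2% to 65.3% in lymph node.

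**Figure D2:**
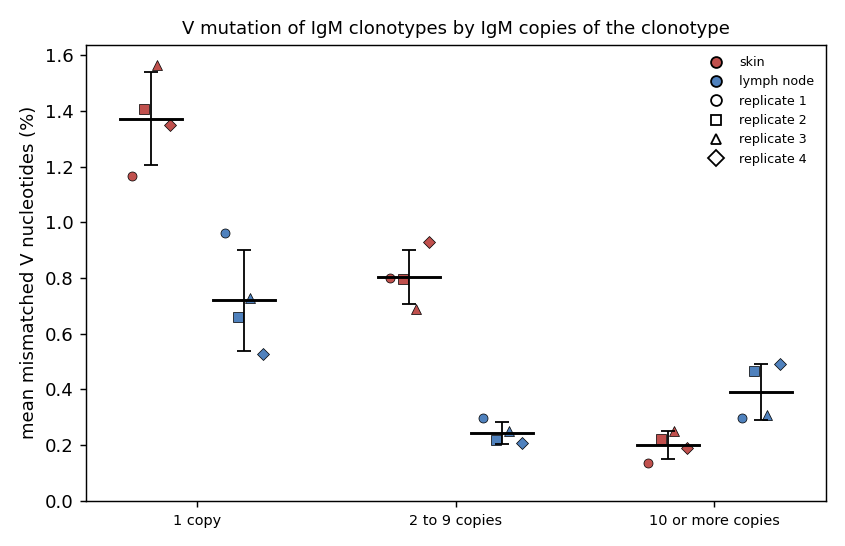
Mean V mutation of IgM clonotypes, as the percentage of aligned V nucleotides that mismatch, by the number of IgM copies of the clonotype in skin and lymph node. Points are replicates and bars are the mean and SD over 4 replicates. Skin lies above lymph node for clonotypes of 1 copy and of 2 to 9 copies and below it for clonotypes of 10 or more copies.

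Many of the small skin clonotypes resembled a larger clonotype of the same replicate. A clonotype was called near a larger one when its junction had the same length, differed at no more than 2 nucleotides, and the other had at least 5 times its copies, counted over all isotypes. A larger one of the same V gene also had to share the J gene, and a larger one of another V gene did not. By that rule 40.7% of skin clonotypes, 303 of 745, lay near a larger one. Those near a larger clonotype of the same V gene were 31.9%, 30.5%, 25.1% and 28.3% of clonotypes in skin, against 5.15%, 1.001%, 1.41% and 0.952% in lymph node. Those near a larger clonotype of another V gene, and none of their own, were 11.5%, 9.20%, 13.1% and 12.4% in skin, against 4.93%, 3.11%, 3.32% and 2.53% in lymph node. Both shares were higher in all skin replicates than in all lymph node replicates. Both tissues were also drawn to 1351 copies and compared within IgM, without asking for the same J gene. Then 28.6% to 36.2% of skin clonotypes and 0.164% to 0.329% of lymph node clonotypes lay near a larger one. The rule needs a clonotype of at least 5 copies beside the small one, and larger clonotypes held more of the copies in skin, as given above.

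The 86 skin clonotypes near a larger one of another V gene had high V mutation. They averaged 2.98%, 5.10%, 4.24% and 3.33% in skin, against 1.82%, 1.10%, 1.21% and 0.929% in lymph node. Of these 86, 79 had a single IgM copy and 55 had exactly the junction of the larger clonotype. They included 62 of the 87 skin clonotypes with 2% V mutation or more, which is 71.3%, against 10.2% of such clonotypes in lymph node. Near a larger clonotype of the same V gene, V mutation was 0.649%, 0.638%, 0.427% and 0.659% in skin and 0.541%, 0.827%, 0.550% and 0.835% in lymph node, and the tissues overlapped.

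In skin replicate 2 the larger clonotype with most such neighbours, IGHV1-82 with IGHJ2, had 18 copies and 0.424% V mutation, and each of its 4 neighbours had 1 copy. They are printed because they show a junction recurring under other V genes, and capitals mark a base that differs from the larger clonotype.
Larger, IGHV1-82: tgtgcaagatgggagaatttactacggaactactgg
Neighbour, IGHV1-4 with 6.25% V mutation: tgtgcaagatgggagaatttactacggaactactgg
Neighbour, IGHV1-84 with 6.94% V mutation: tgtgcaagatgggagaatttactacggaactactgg
Neighbour, IGHV14-4 with 8.70% V mutation: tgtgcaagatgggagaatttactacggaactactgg
Neighbour, IGHV1-4 with 5.56% V mutation: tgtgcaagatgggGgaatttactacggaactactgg

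A similar group in skin replicate 3 had IGHV1-55 with IGHJ1 as the larger clonotype, with 12 copies and 0.174% V mutation.
Larger, IGHV1-55: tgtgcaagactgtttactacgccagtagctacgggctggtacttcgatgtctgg
Neighbour, IGHV1-53 with 1.74% V mutation: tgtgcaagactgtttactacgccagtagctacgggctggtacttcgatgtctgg
Neighbour, IGHV1-82 with 4.17% V mutation: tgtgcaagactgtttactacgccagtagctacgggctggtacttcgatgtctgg
Neighbour, IGHV1-69 with 8.33% V mutation: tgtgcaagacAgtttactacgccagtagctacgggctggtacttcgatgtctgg
Neighbour, IGHV1-69 with 8.39% V mutation: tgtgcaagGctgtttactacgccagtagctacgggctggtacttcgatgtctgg

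Leaving these clonotypes out removed the excess of V mutation in skin. Without clonotypes near a larger one of another V gene, V mutation was 0.408%, 0.486%, 0.398% and 0.477% in skin, against 0.470%, 0.511%, 0.464% and 0.420% in lymph node, and the tissues overlapped (adjusted p = 0.457, exact permutation test). Without clonotypes near any larger one it was 0.272%, 0.410%, 0.386% and 0.391% in skin, against 0.466%, 0.508%, 0.463% and 0.416% in lymph node. All skin replicates were then below all lymph node replicates, with a difference of -0.0986 percentage points (adjusted p = 0.0357, exact permutation test). The share of unmutated clonotypes behaved otherwise. Without clonotypes near a larger one of another V gene it was 51.9%, 49.4%, 50.6% and 48.8% in skin, against 60.4%, 62.0%, 60.7% and 64.9% in lymph node, without overlap (adjusted p = 0.0476, exact permutation test). Without clonotypes near any larger one it was 60.9%, 47.6%, 50% and 55.8%, against 60.6%, 62.1%, 60.8% and 65.2% in lymph node, and the tissues overlapped (adjusted p = 0.0857, exact permutation test). Both settings were chosen after the data were seen. How the neighbours arose was not tested.

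**Figure D3:**
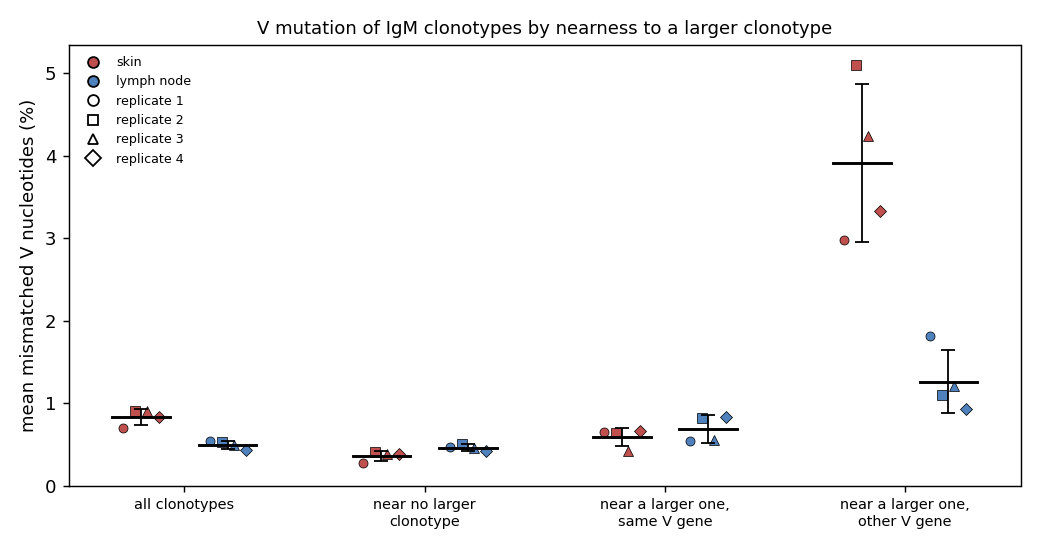
Mean V mutation of IgM clonotypes, as the percentage of aligned V nucleotides that mismatch, for all clonotypes and by nearness to a larger clonotype, in skin and lymph node. Points are replicates and bars are the mean and SD over 4 replicates. The skin values for neighbours under another V gene, 2.98% to 5.10%, stand above all others, and for clonotypes near no larger one skin lies below lymph node.

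Clone size differed between the tissues with or without these neighbours. Without clonotypes near a larger one, 1282 drawn copies held 126.6, 105, 116.9 and 80.1 distinct clonotypes in skin, against 1155, 1147, 1222 and 964.3 in lymph node. Grouped into lineages, which joined clonotypes that shared V gene, J gene, CDR3 length and at least 85% of CDR3 nucleotides, skin held 153, 116, 132 and 101 lineages and lymph node 17353, 63959, 32052 and 54547. Draws of 1351 copies then held 90.2 to 137.6 lineages in skin and 983.6 to 1256 in lymph node, and the exact permutation test gave an adjusted p of 0.0286 for this difference.

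Use of single V genes differed for 2 of the 77 V genes tested, 2.6% of them, with 1 higher and 1 lower in skin. The test was edgeR's quasi-likelihood test on clonotypes per V gene with Benjamini-Hochberg adjustment over all 77, and 16 genes had an unadjusted p under 0.05. The balance of calls changed with the setting: DESeq2 called 2 genes, both higher in skin, and edgeR on IgM copies per V gene called 17 of 86, all lower in skin. The median log2 difference of all genes tested was -0.67, and -0.26 without the scaling of library totals, so single values are read against that shift. Of the 139 V genes with IgM clonotypes, 61 had none in skin.

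IGHV11-2, the V gene of phosphatidylcholine-binding B-1a cells, at 114048241 to 114048704 on chromosome 12, was higher in skin as a share of clonotypes. It had 4, 2, 1 and 0 clonotypes in skin, 1.70%, 1.15%, 0.524% and 0% of clonotypes, against 28, 89, 40 and 87 in lymph node, 0.124%, 0.0968%, 0.0959% and 0.114%. The first 3 skin replicates were above all lymph node replicates, and skin replicate 4 had none, for which a count of 0 allows up to 2.07%. The log2 difference was 2.74 with an SE of 0.68 and an edgeR adjusted p of 0.0047. The call rested on skin replicates 1 and 2: without replicate 1 the edgeR adjusted p was 0.318, and without replicate 2 it was 0.106. It was also lost with all 12 tissue replicates in the edgeR fit (adjusted p = 0.107) and with the replicate number as a block (adjusted p = 0.227). By lineages, in technical library 2, without single-copy clonotypes and without clonotypes near a larger one, IGHV11-2 fell below edgeR's filter for low counts and was not tested.

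The share of IGHV11-2 depended on the unit counted. As a share of IgM copies it was 1.21%, 0.370%, 0.538% and 0% in skin, against 0.847%, 1.22%, 0.721% and 0.261% in lymph node, and the tissues overlapped. On copies per V gene the edgeR log2 difference was -0.81 with an adjusted p of 0.754. In draws of 1351 copies, IGHV11-2 made up 1.91%, 1.15%, 0.546% and 0% of the drawn clonotypes in skin, against 0.317%, 0.450%, 0.271% and 0.285% in lymph node.

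All 7 IGHV11-2 clonotypes of skin used IGHJ1, 5 of them were unmutated, and they shared the first 11 and the last 20 bases of the junction. They are shown because of this likeness, with the part that is not common to all 7 in capitals, and each had a CDR3 of 11 or 12 amino acids.
Skin replicate 1, 14 copies: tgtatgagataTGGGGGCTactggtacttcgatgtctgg
Skin replicate 1, 8 copies: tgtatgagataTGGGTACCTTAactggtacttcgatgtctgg
Skin replicate 1, 6 copies: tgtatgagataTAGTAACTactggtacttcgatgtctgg
Skin replicate 1, 1 copy: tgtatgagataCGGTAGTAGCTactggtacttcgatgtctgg
Skin replicate 2, 4 copies: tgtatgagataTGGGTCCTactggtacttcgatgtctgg
Skin replicate 2, 1 copy: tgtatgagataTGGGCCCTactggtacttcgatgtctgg
Skin replicate 3, 8 copies: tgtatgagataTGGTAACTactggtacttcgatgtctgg

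Of these 7 junctions, 6 also occurred with IGHV11-2 in lymph node, and 3 of them in all 4 lymph node replicates. The junction of skin replicate 3 had 9, 684, 404 and 96 IgM copies in lymph node replicates 1 to 4 and ranked 3 by size among the IgM clonotypes of lymph node replicate 3. The skin junction of 6 copies had 181, 674, 96 and 68 copies there. None of the 7 lay near a larger clonotype in its skin replicate by the rule above, which asks for 5 times the copies. By lineages, the 4 clonotypes of skin replicate 1 formed 3 and the 2 of skin replicate 2 formed 1. IGHV12-3, the other main V gene of phosphatidylcholine-binding B-1a cells, had 0, 1, 1 and 0 clonotypes in skin, against 0, 61, 5 and 17 in lymph node. IGHV11-1 had 0 in skin and 13 in lymph node.

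IGHV1-18, at 114682632 to 114682925 on chromosome 12, was lower in skin. It had 3, 2, 6 and 2 clonotypes in skin, 1.28%, 1.15%, 3.14% and 1.38%, against 4.03%, 3.49%, 4.24% and 4.17% in lymph node. The tissues did not overlap, and the log2 difference was -1.58 with an SE of 0.33 and an edgeR adjusted p of 0.000426. In draws of 1351 copies it made up 1.39%, 1.15%, 3.09% and 1.61% of skin clonotypes and 4.11%, 3.54%, 4.21% and 4.53% of lymph node clonotypes, again without overlap. The call was lost under DESeq2 (adjusted p = 0.0682) and in technical library 1 alone by edgeR (adjusted p = 0.118).

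The V genes next by p within each direction were not called by edgeR in the fit on clonotypes. IGHV5-6 had 2.13%, 2.87%, 1.05% and 9.66% of clonotypes in skin, against 1.21%, 1.22%, 1.31% and 1.07% in lymph node (log2 difference 1.16, edgeR adjusted p = 0.125). IGHV5-6 was called by DESeq2 (log2 difference 1.502, adjusted p = 2.8e-05), by edgeR without scaling (adjusted p = 0.0246) and by edgeR without skin replicate 3 (adjusted p = 0.0437), and without skin replicate 4 the edgeR log2 difference was 0.34 (adjusted p = 0.700). The 14 clonotypes of skin replicate 4 belonged to 7 lineages, and the tissues overlapped. IGHV1-59 had 2.55%, 1.15%, 2.62% and 1.38% in skin and 0.842%, 1.03%, 0.969% and 0.807% in lymph node, without overlap (log2 difference 0.74, edgeR adjusted p = 0.396). IGHV2-2 had 1.28%, 0%, 1.05% and 0% in skin and 1.72%, 1.85%, 2.06% and 1.797% in lymph node (log2 difference -1.87, edgeR adjusted p = 0.0944). IGHV1-80 had 2.55%, 0%, 1.05% and 2.07% in skin and 2.76%, 2.96%, 2.34% and 2.64% in lymph node (log2 difference -1.25, edgeR adjusted p = 0.0944). In other settings edgeR called IGHV1-80 lower in skin in 5 of 20 alternatives. These were by lineages, in technical library 1, without the filter, without clonotypes near a larger one and without skin replicate 1. IGHV2-2 was called lower in 2 of 20, in technical library 1 and without the filter.

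**Figure D4:**
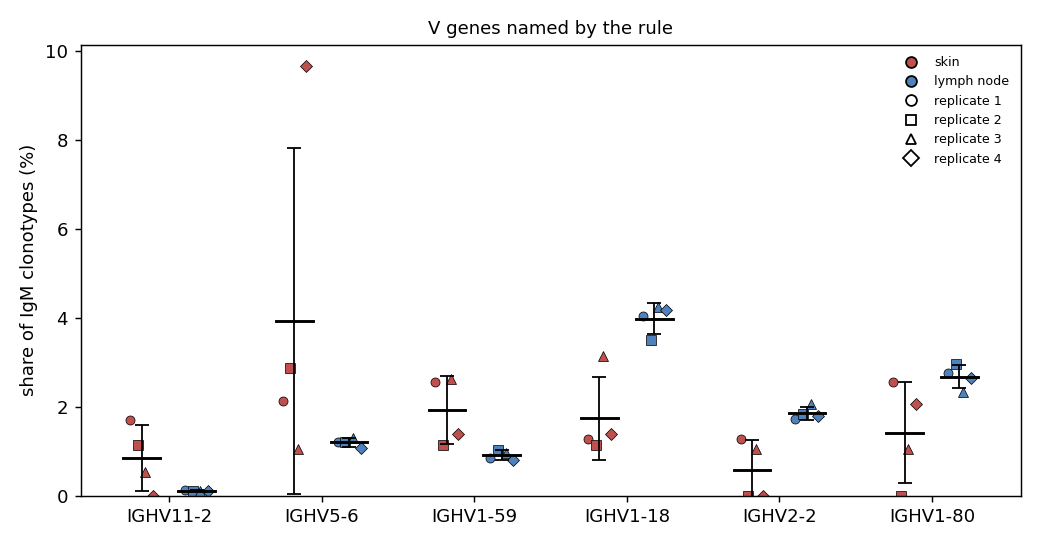
Share of IgM clonotypes, in percent, for the 6 V genes described, in skin and lymph node. Points are replicates and bars are the mean and SD over 4 replicates. IGHV11-2 lies above lymph node in 3 of 4 skin replicates, IGHV1-18 lies below it in all 4, and skin replicate 4 sets the mean of IGHV5-6.

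Groups of V genes chosen by map position or B cell subset gave few or no calls beside the 2.6% of all V genes. Of the 10 tested distal IGHV1 genes, IGHV1-74 to IGHV1-85, edgeR called none, with a median log2 difference of -0.999. They made up 11.1%, 9.77%, 10.5% and 9.66% of clonotypes in skin and 12.9%, 13.7%, 12.3% and 12.8% in lymph node. Of the 9 tested IGHV5 genes and the 7 tested IGHV2 genes, families that lie near the D segments, edgeR called none, with medians of -0.73 and -1.38. The 2 tested IGHV7 genes, the S107 family known from natural antibodies to phosphorylcholine, were not called either, with a median of -0.37. At an unadjusted p under 0.05 by edgeR, the distal IGHV1 genes, the IGHV5 genes and the IGHV2 genes had 2 each and the IGHV7 genes 0. Of the 3 B-1a genes only IGHV11-2 was tested.

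Of the 10 V families with at least 1% of clonotypes, 0% passed the threshold after adjustment over the 10. IGHV1, the largest V family of the mouse, made up 60.9%, 63.8%, 68.6% and 56.6% of clonotypes in skin, against 62.5%, 63.1%, 62.2% and 61.6% in lymph node. IGHV2 was lower in all skin replicates, at 2.98%, 4.02%, 4.71% and 2.76%, against 5.29%, 5.03%, 5.30% and 5.06% in lymph node (exact permutation p = 0.0286, adjusted p = 0.143). IGHV10 was likewise at 1.28%, 2.30%, 0.524% and 2.76% in skin and 3.63%, 2.88%, 3.07% and 3.21% in lymph node, with equal p-values in the exact permutation test. The other 8 families, IGHV1 included, overlapped between the tissues, with exact permutation p-values of 0.171 or more before adjustment. Skin replicate 4 had 15.9% IGHV5, where the other skin replicates had 5.76% to 8.09% and the lymph node replicates 7.77% to 8.27%.

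J gene use did not differ beyond the spread between skin replicates, and 0% of the 4 J genes passed the threshold. IGHJ1 was used by 16.2%, 17.8%, 25.7% and 23.4% of clonotypes in skin, against 19.4%, 20.2%, 19.9% and 19.6% in lymph node. IGHJ2 was used by 32.8%, 43.7%, 24.1% and 30.3% in skin, against 33.2%, 35.5%, 33.6% and 34.5% in lymph node. IGHJ3 was used by 9.79%, 6.90%, 8.90% and 5.52% in skin, against 7.16%, 8.02%, 7.98% and 8.23% in lymph node. IGHJ4 was used by 41.3%, 31.6%, 41.4% and 40.7% in skin, against 40.3%, 36.2%, 38.5% and 37.7% in lymph node. The exact permutation tests gave unadjusted p-values of 0.657 to 0.943, 0 of 4 under 0.05. The SD between replicates was 1.93 to 8.17 percentage points in skin and 0.372 to 1.68 in lymph node. The exact 95% binomial interval of IGHJ2 in skin replicate 3 ran from 18.2% to 30.8% and that in skin replicate 2 from 36.2% to 51.4%.

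**Figure D5:**
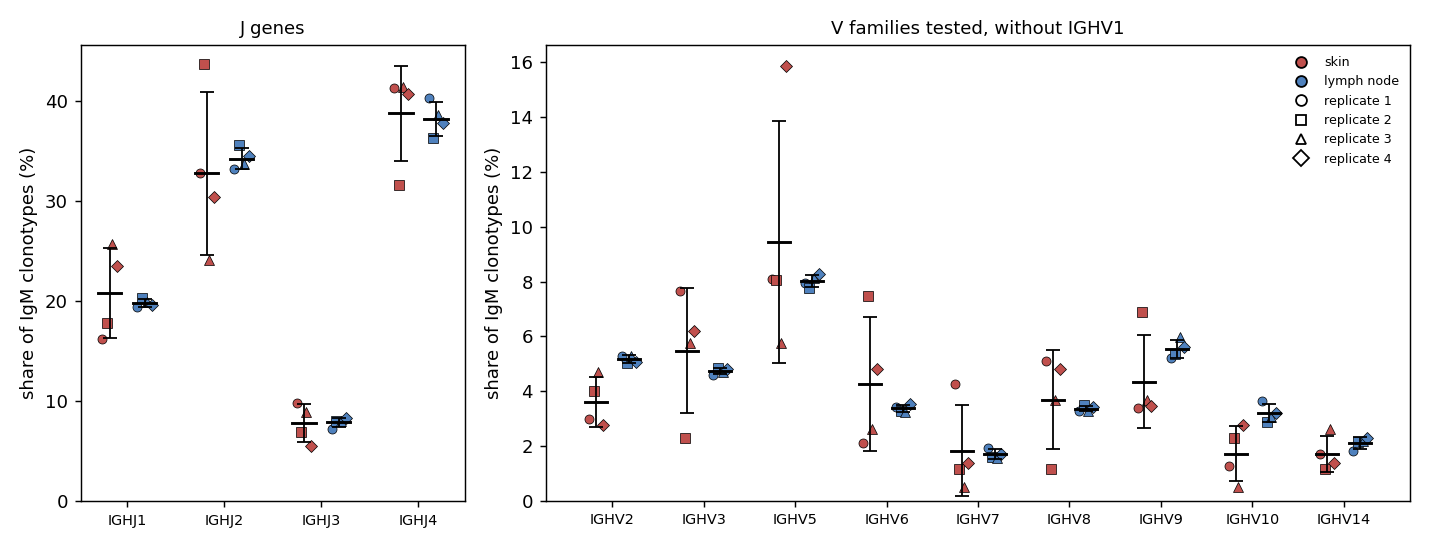
Shares of IgM clonotypes, in percent, by J gene (left) and by V family (right, without IGHV1, which lies at 56.6% to 68.6%), in skin and lymph node. Points are replicates and bars are the mean and SD over 4 replicates. Skin replicates scatter around tightly grouped lymph node replicates, and IGHV2 and IGHV10 are lower in all 4 skin replicates.

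CDR3 length averaged 12.13, 11.59, 12.06 and 12.23 amino acids in skin, against 12.33, 12.23, 12.27 and 12.22 in lymph node. Skin replicate 4 lay within the lymph node range and the other 3 skin replicates below it. The difference of -0.26 amino acids had an exact permutation p of 0.0857, also after adjustment. It passed the threshold in several settings: by lineages it was -0.42 (adjusted p = 0.0286, exact permutation test), and without clonotypes near a larger one it was -0.60, with 11.89, 11.25, 11.79 and 11.90 amino acids in skin and 12.35, 12.29, 12.32 and 12.27 in lymph node (adjusted p = 0.0357, exact permutation test). For clonotypes of 10 or more copies it was -0.04 (adjusted p = 0.886, exact permutation test), with means of 10.97 to 12.1 amino acids in skin and 11.3 to 12.0 in lymph node.

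None of 6 further CDR3 measures, 0% of them, passed the threshold. CDR3s of 16 or more amino acids were 7.66%, 6.32%, 12.0% and 8.28% in skin and 11.6%, 10.8%, 10.9% and 10.4% in lymph node, and those of 9 or fewer were 13.6%, 22.4%, 17.8% and 13.1% in skin and 14.0%, 14.5%, 14.1% and 14.3% in lymph node. Tyrosine, a residue common in mouse CDR3s, made up 22.0%, 20.1%, 19.7% and 21.3% of CDR3 residues in skin and 21.4%, 21.15%, 21.3% and 21.3% in lymph node. Net charge averaged -0.39 in skin and -0.42 in lymph node, and Kyte-Doolittle hydropathy -0.70 in skin and -0.74 in lymph node. The unadjusted p-values of the 6 exact permutation tests were 0.143 or more, and 0 of 6 were under 0.05.

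Few skin IgM clonotypes recurred in lymph node, but few also recurred between the technical libraries of a replicate. A skin replicate shared 0% to 4.02% of its clonotypes with a single lymph node replicate. Between its own technical libraries it shared 0.575% to 2.09%, and a lymph node replicate 2.58% to 5.61%. Low sharing therefore does not show that the tissues hold different repertoires. Of the 745 skin clonotypes, 23 were found, with V gene, J gene and junction all equal, in at least 1 lymph node replicate, and 13 of them in the lymph node of the same number. No clonotype was shared between skin replicates. Skin replicate 2 shared 7 of 174 clonotypes with lymph node replicate 2 and 1, 2 and 2 with lymph node replicates 1, 3 and 4. Skin replicate 1 shared 4, 4, 4 and 3 of 235 with lymph node replicates 1 to 4, skin replicate 3 shared 2, 1, 2 and 2 of 191, and skin replicate 4 shared 2, 0, 0 and 0 of 145. Sharing with the same number exceeded that with other numbers by 0.730 percentage points (p = 0.208, exact one-sided permutation over 24 pairings, smallest possible 0.0417), and without replicate 2 the difference was -0.159.

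The 23 recurring clonotypes were 6 IGHV11-2, 3 IGHV6-3, 2 IGHV3-6 and 12 others of 12 V genes, and 12 of the 23 used IGHJ1. Their mean V mutation was 0.246%, against 0.846% for the other skin clonotypes, and their mean CDR3 length 10.2 amino acids, against 12.1. These are values over clonotypes of all 4 skin replicates, with no test. The other skin clonotypes include neighbours under another V gene, which averaged 2.98% to 5.10% V mutation. Skin clonotypes near no larger one averaged 0.272% to 0.410%. The 3 largest found in the lymph node of the same number are shown because a fixed rule of size named them, with the CDR3 in capitals. They do not show that a number marks 1 mouse.
Skin replicate 2, IGHV6-3 with IGHJ1: tgcACAGGAGGGTACTTCGATGTCtgg
Skin replicate 1, IGHV3-6 with IGHJ2: tgtGCAAGCTATAGTAACTTTGACTACtgg
Skin replicate 2, IGHV2-6 with IGHJ2: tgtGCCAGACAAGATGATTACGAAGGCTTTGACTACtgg

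The first had 24 copies in skin and 2 in lymph node, the second 17 in skin and 53 in lymph node, and the last 17 in skin and 9 in lymph node. Each lay in 1 technical library of its skin replicate, their CDR3s spanned 7 to 11 amino acids, and their V mutation was 0 to 0.123%.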

How the data were processed

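Per the labels' protocols, heavy-chain RNA was reverse-transcribed with constant-gene primers that carry a molecular identifier of 10 nucleotides, extended with V gene primers, amplified and sequenced in pairs from framework 2 on. The deposited tables list distinct sequences with V, J and constant gene, junction, a whole-number count and V mismatches with the aligned V length, and the file headers do not say whether the count is of identifiers or reads. Per the submitters' processing notes the build was mm10. How V, J and constant genes were assigned is not stated in any of these sources.

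Technical libraries were summed per replicate, and rows listed as IGHM formed clonotypes. Single values were compared by exact two-sided permutation of the difference of means (70 assignments), with Benjamini-Hochberg adjustment over 5 repertoire measures, 4 J genes, 10 V families, 6 CDR3 measures or 3 isotype classes. A clonotype's V mutation was averaged over its copies. It was unmutated if no sequence had a mismatch. V genes were tested on clonotypes with edgeR 4.0.16 (R 4.3.3), TMM scaling (factors 0.869 to 1.37), its filter for low counts and a threshold of 0.05; fits without a replicate kept the 77 genes. DESeq2 1.42.0 was an alternative. Other steps ran in Python 3.11.15 with scipy 1.17.1, pandas 2.3.3 and numpy 2.4.6. They were tested on simulated data. J genes, tested families, V genes past the threshold and, where fewer than 3 passed in a direction, the 3 with smallest p were named, with the clonotypes that fixed rules of size gave, of which 1 in lymph node is not reported here. Members, lists and tests were chosen with earlier results of these data known, and alternatives on near-identical junctions, on copy classes, on switched copies for clone size and on equal draws of V genes were added after the data were seen. Numbers were not taken as pairs, since no label says that they mark the same mouse. Correlations of V gene deviations between same-numbered replicates were -0.0383, -0.0961, 0.0691 and 0.098. With 145 to 235 clonotypes per skin replicate over 77 V genes, these cannot exclude pairs. A share of 0 was given the limit of 3 clonotypes over the replicate's total. Intervals and limits cover counting error only.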

Additional observations from a re-analysis of the deposited data

Results flagged for a closer look

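Of 142 groups of 4 replicate values examined, 12 had a replicate whose distance to the nearest other was above Dixon's critical share of the group's range, and chance alone flags about 1 group in 20. Lymph node replicate 4 stood apart in its largest clonotype, with 10068 copies and 6.63% of drawn copies, where the next replicates had 1736 copies and 1.47%. It also stood apart in the share of IgM copies in clonotypes with switched copies, 15.1%, against 2.77% in the next. Skin replicate 4 stood apart in its largest clonotype of 319 copies, where the next had 72. Skin replicate 2 had the lowest IGHJ4 share, 31.6%, against 40.7% in the next, and the highest IGHV9 share, 6.90%, against 3.66%.

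Skin replicate 1 was the only skin replicate with IgD copies beside larger IgM clonotypes, at 2.15%, and lymph node replicate 3 had the lowest such share in its tissue, 0.800%. Skin replicate 1 also had the smallest share of clonotypes of 2% V mutation or more, 8.94%, against 12.6% in the next. Skin replicate 3 had the lowest V mutation among clonotypes near a larger one of the same V gene, 0.427%, against 0.638% in the next. Lymph node replicate 1, the replicate with fewest lymph node clonotypes, had the highest share of clonotypes near a larger one of the same V gene, 5.15%, and of its single-copy clonotypes, 13.5%, against 1.41% and 2.64% in the next.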

How the results depend on the processing

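The difference in distinct clonotypes kept its direction and its adjusted p under 0.05 in all 16 alternatives, of which the one on clonotypes of both technical libraries could give no other result, since skin replicates held 1 to 4 of them and 22 copies were drawn; J genes, V families and CDR3 composition gave 0 calls in all 18 run. V mutation was higher in skin in 16 of 20 alternatives, weaker with copies as weights (0.100), and lower in skin with only clonotypes of both technical libraries (-0.0594), with clonotypes of 10 or more copies (-0.191), without clonotypes near a larger one (-0.0986) and without those near one of another V gene (-0.0241). The difference in unmutated clonotypes was -1.85 percentage points with copies as weights, -8.61 without clonotypes near a larger one and 36.6 for clonotypes of 10 or more copies. The share of the 10 largest clonotypes differed by 14.5 without single-copy clonotypes, no longer past the threshold, and by 13.7 to 20.5 without single replicates, past it without a lymph node replicate and not without a skin replicate. CDR3 length was shorter past the threshold by lineages (-0.419), without single-copy clonotypes (-0.4505), in technical library 2 (-0.231) and without clonotypes near a larger one (-0.602), longer with only clonotypes of both libraries (0.266), and -0.335 to -0.119 without single replicates, past the threshold without skin replicate 4 (-0.335). Isotype classes past the threshold were 2 by lineages, IgD and IgG, and 2 in technical library 1, IgA and IgG.

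V gene calls numbered 6 in technical library 1 (1 higher in skin), 5 in library 2 (0 higher), 1 without single-copy clonotypes (0 higher), 17 on copies (0 higher), 1 with all 12 replicates (0 higher), 6 without the filter (2 higher), 2 by DESeq2 (both higher, IGHV11-2 and IGHV5-6), 3 without clonotypes near a larger one (0 higher), 3 without TMM scaling (2 higher) and 1 to 5 without single replicates. By lineages edgeR called 2, IGHV1-18 and IGHV1-80, both lower in skin. With the replicate number as a block, edgeR called 1, IGHV1-18, and IGHV11-2 had 2.57 with an edgeR adjusted p of 0.227. Whether numbers mark pairs is not known. IGHV11-2 was -0.815 on copies and IGHV1-59 -2.49 in technical library 1. Sharing was -0.159 without replicate 2 and at most 1.14 without another. The fit on clonotypes of both libraries could not be made. Causes were not tested. Skin shares rest on 145 to 235 clonotypes per replicate, which limits what they can show.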
